A study of Bos taurus with 6 samples.

Results

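The 9 genes described here are MDM2, CCNG1, BTG2, ZMAT3, TP53INP1 and SESN1, which are known as targets of the transcription factor p53, and the GADD45 growth arrest genes GADD45A, GADD45B and GADD45G. They were found by gene name in a table of 36577 loci, and all 9 passed the filter on low counts, as did 15576 loci in all. RNA was sequenced from primary hepatocytes, the main cell type of the liver, which had been isolated from the livers of fasted, healthy female calves 1 day after birth and are labelled wild type. Every culture received palmitic acid (PA) at 400 µmol/L, a saturated fat that harms hepatocytes in excess. In 3 libraries (labelled PA_DMSO, here PA + DMSO) it was given with the solvent DMSO, and in 3 (labelled PA_3-IAA, here PA + 3-IAA) with 200 µmol/L indole-3-acetic acid, a compound formed when tryptophan is broken down. The cells had attached in medium with serum, insulin, dexamethasone and vitamin C and were then kept in medium with serum and antibiotics. The length of the treatment and the number of calves are not given in the sources used here. No cultures without PA were among these samples, and each difference is therefore one against PA given with the solvent. Nothing in the labels ties the replicates to separate animals or dishes, so a p-value here speaks only of the spread among these libraries, which may be technical.

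The protein p53 responds to DNA damage and other stress by switching on genes that stop the cell cycle, repair DNA or start cell death. One of its targets, MDM2, encodes the ubiquitin ligase that marks p53 for destruction, so that the response limits itself. The GADD45 proteins are small and acidic and bind the replication clamp PCNA, the mitotic kinase CDK1 with cyclin B, and MAP3K4, a kinase upstream of p38 and JNK. GADD45A is induced both through p53 and, independently of it, by stress factors such as ATF4, whereas GADD45B is best known as a target of NF-kB and TGF-beta signalling. In the deposited annotation the proteins of all 3 GADD45 genes carry the same domain, Ribosomal_L7Ae.

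Total counts ranged from 16580723 to 22562450 per library. Replicate 3 of PA + DMSO was set apart from replicates 1 and 2: on the first principal component of log2 CPM, which held 78.5% of the variance, it lay at -15.7 and they at -54.0 and -54.7, while the PA + 3-IAA libraries lay between 41.2 and 41.8. CPM is the read count scaled to a common library size, after TMM correction. Hepatocyte markers were abundant. ALB, the gene of serum albumin, stood at 3126 ± 393 CPM (SD, n = 3) with PA + DMSO and 5350 ± 274 CPM with PA + 3-IAA. Of 11 tested hepatocyte markers 9 were higher with PA + 3-IAA and none lower, and their summed level was 15741 to 18862 CPM against 25181 to 27771 CPM. Endothelial markers summed to 54.4 to 108 CPM with PA + DMSO and 148 to 165 CPM with PA + 3-IAA (6 of 9 higher, none lower), and macrophage markers to 51.8 to 53.6 CPM and 58.4 to 67.8 CPM (4 of 8 higher, none lower). Markers of stellate cells and fibroblasts summed to 2943 to 3712 CPM and 3801 to 4071 CPM (3 of 8 higher, 2 lower), and those of bile duct cells to 210 to 236 CPM and 200 to 224 CPM (1 of 6 higher, 2 lower). Of all genes tested 25.4% were higher and 25.8% lower, 51.2% together, by the same test, which is described below. The share called was 81.8% for hepatocyte, 66.7% for endothelial and 62.5% for stellate cell and fibroblast markers. It was 50% for macrophage and for bile duct markers, near that of all genes. None of the matched markers was at 0 in all libraries. The part of these markers in the results below was not tested. In such bulk samples fewer cells of a type and less RNA per cell cannot be told apart.

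With 3-IAA, GADD45A and 5 of the 6 p53 targets were lower, GADD45B and GADD45G were slightly higher, and SESN1 did not pass the test. GADD45A fell 4.44-fold and TP53INP1 3.00-fold, whereas ZMAT3, MDM2, BTG2 and CCNG1 fell between 1.25-fold and 1.5-fold. In edgeR's quasi-likelihood test with Benjamini-Hochberg adjustment over all genes tested, 6 of the 9 genes were lower and 2 higher at an adjusted p under 0.05. The background was high, with 51.2% of all genes tested called, 25.8% lower and 25.4% higher. The CPM values of the groups did not overlap for the 6 genes that fell, where 31.0% of all genes lay wholly lower with PA + 3-IAA, 31.5% wholly higher and 62.5% one or the other. The median log2 fold change of the 9 genes was -0.46, against 0.00 over all genes tested. Without PA + DMSO replicate 3 the counts were 6 lower and 2 higher, where 60.5% of all genes tested were called. DESeq2 and the fit with a replicate block gave 6 lower and 0 higher. With these 45.6% and 48.1% of all genes tested were called.

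**Figure D1:**
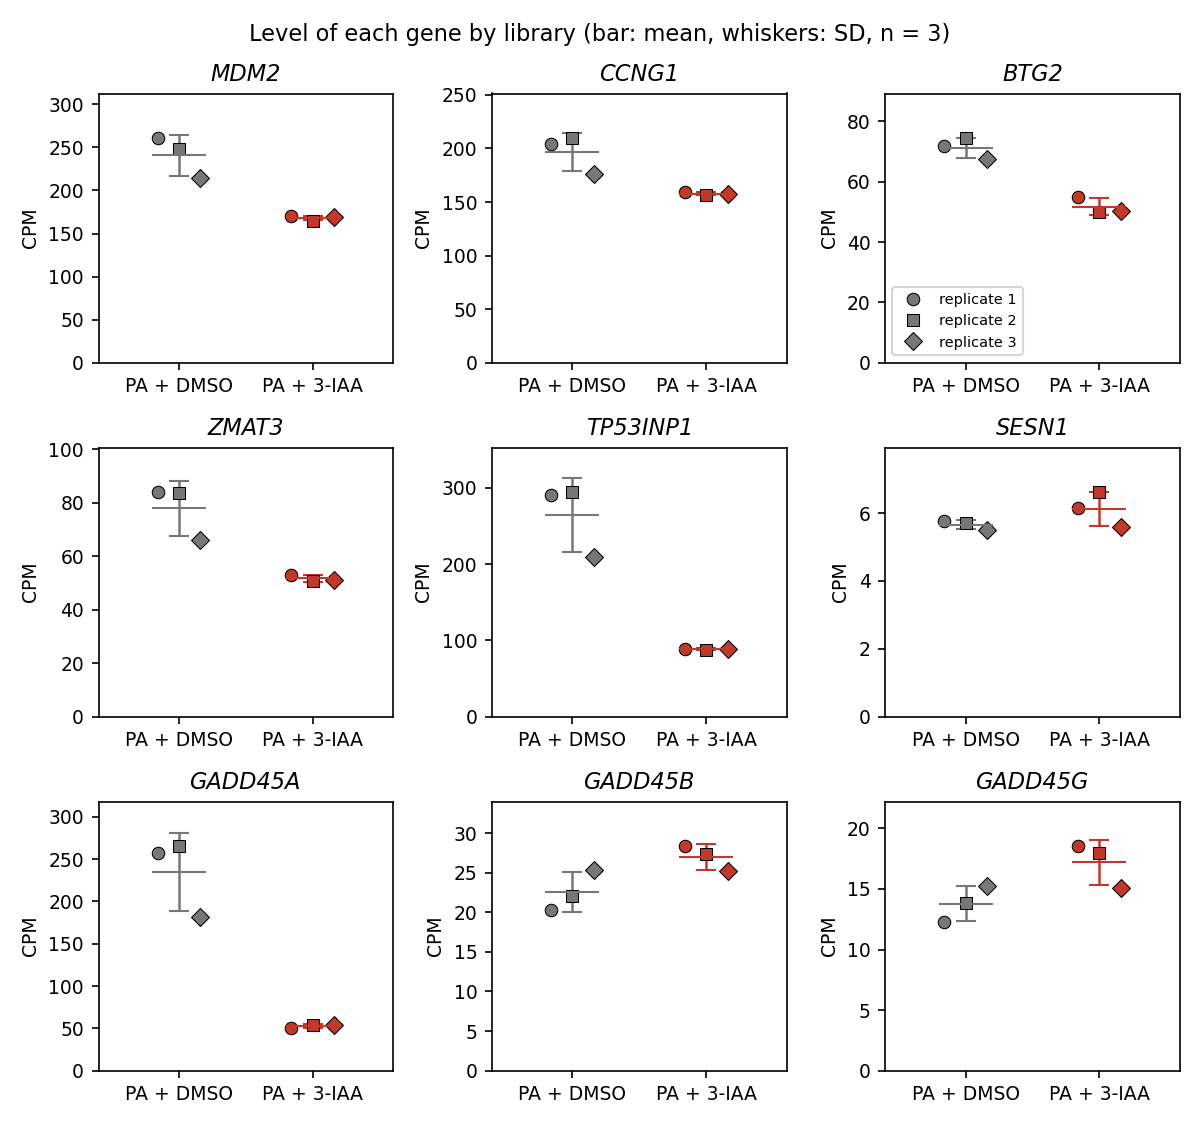
CPM (vertical axis, from 0) of the 9 genes in the 3 PA + DMSO (grey) and 3 PA + 3-IAA (red) libraries, with the mean as a bar, the SD as whiskers and 1 symbol for each replicate number. The groups are apart for MDM2, CCNG1, BTG2, ZMAT3, TP53INP1 and GADD45A, and overlap for SESN1, GADD45B and GADD45G; PA + DMSO replicate 3 is the lowest of its group for the 6 genes that fell and the highest for GADD45B and GADD45G.

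MDM2 closes the feedback loop on p53. Its level was 261, 248 and 214 CPM in PA + DMSO replicates 1 to 3 and 170, 165 and 169 CPM in PA + 3-IAA replicates 1 to 3. Every PA + 3-IAA library was below every PA + DMSO library, and PA + DMSO replicate 3 was the lowest of its group. The fitted log2 fold change was -0.52 (SE 0.08, adjusted p = 0.000459 by edgeR), a 1.43-fold fall. By size of change it was not extreme, as 2393 of the genes tested had a lower log2 fold change.

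CCNG1 encodes cyclin G1, which recruits the phosphatase PP2A to MDM2 and so takes part in the same loop. It stood at 205, 209 and 176 CPM with PA + DMSO and at 159, 157 and 157 CPM with PA + 3-IAA. The groups did not overlap, but PA + DMSO replicate 3 lay nearer to the PA + 3-IAA libraries than to the other two of its group. Its fall of 1.25-fold was the smallest of the 6 (log2 -0.32, SE 0.07, adjusted p = 0.00484 by edgeR).

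BTG2 encodes an antiproliferative protein that binds the CCR4-NOT deadenylase and speeds the decay of mRNAs. It was at 71.7, 74.4 and 67.6 CPM with PA + DMSO and at 54.9, 50.1 and 50.2 CPM with PA + 3-IAA. Here PA + DMSO replicate 3 stayed close to its own group. The log2 fold change was -0.46 (SE 0.06, adjusted p = 0.000397 by edgeR), a 1.38-fold fall.

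ZMAT3 encodes a zinc finger protein that binds RNA and acts in growth control downstream of p53. Its level was 84.0, 83.8 and 66.1 CPM with PA + DMSO and 53.2, 50.9 and 51.2 CPM with PA + 3-IAA. PA + DMSO replicates 1 and 2 were nearly equal, and replicate 3 lay about midway between them and the PA + 3-IAA libraries. The log2 fold change was -0.59 (SE 0.09, adjusted p = 0.000715 by edgeR), a 1.5-fold fall.

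TP53INP1 encodes a stress-induced nuclear protein that promotes the phosphorylation of p53 and also takes part in autophagy. It went from 290, 294 and 209 CPM with PA + DMSO to 88.4, 86.8 and 89.3 CPM with PA + 3-IAA. The lowest PA + DMSO library was still more than double the highest PA + 3-IAA library. The log2 fold change was -1.58 (SE 0.13, adjusted p = 8.32e-05 by edgeR), and 296 genes tested had a lower one.

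SESN1 encodes sestrin 1, which holds back the growth kinase complex mTORC1 when leucine is scarce and is a p53-responsive member of the sestrin family. It was the least abundant of the 9 genes, on 91 to 144 counts per library. Its level was 5.77, 5.70 and 5.51 CPM with PA + DMSO and 6.14, 6.61 and 5.59 CPM with PA + 3-IAA. In CPM the lowest PA + 3-IAA library lay below 2 of the PA + DMSO libraries. The log2 fold change of 0.11 (SE 0.12, adjusted p = 0.462 by edgeR) did not pass the test. TPM is the authors' level per transcript length. In that unit SESN1 did not overlap, at 2.66, 2.79 and 2.72 with PA + DMSO and 3.52, 3.5 and 3.07 with PA + 3-IAA. The share of all genes whose groups lay apart in TPM was not counted, so this has no background to be set against. Limma on log2(TPM + 1) gave SESN1 a change of 0.23, also not past the threshold (adjusted p = 0.074). In that fit 4493 of all genes were higher and 3147 lower, with a median log2 fold change of 0.05. Its relative SESN2, known as a target of ATF4 as well as of p53, went from 162 ± 42.8 to 31.2 ± 2.35 CPM (log2 -2.38, adjusted p = 0.000396 by edgeR), and was named after its values were seen.

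Among the growth arrest genes, GADD45A had the largest fall of the 9 genes. It stood at 257, 265 and 181 CPM in PA + DMSO replicates 1 to 3 and at 50.3, 54.5 and 53.6 CPM in PA + 3-IAA replicates 1 to 3. The PA + 3-IAA libraries were tightly grouped and all far below PA + DMSO, whose replicate 3 was lower than the other two. The log2 fold change was -2.15 (SE 0.15, adjusted p = 7.26e-05 by edgeR), and of all genes tested 133 had a lower one. Without PA + DMSO replicate 3 it was -2.31.

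GADD45B and GADD45G went the other way by a small amount. GADD45B was at 20.3, 22.1 and 25.3 CPM with PA + DMSO and at 28.3, 27.4 and 25.2 CPM with PA + 3-IAA. GADD45G was at 12.3, 13.8 and 15.2 CPM with PA + DMSO and at 18.5, 18.0 and 15.1 CPM with PA + 3-IAA. For both genes the groups overlapped in CPM, since replicate 3 of PA + DMSO was marginally above replicate 3 of PA + 3-IAA. In TPM, where the share of all genes lying apart was not counted, the groups overlapped for GADD45G but not for GADD45B. GADD45B was at 27.3, 29.1 and 33.6 TPM with PA + DMSO and at 40.2, 37.3 and 34.9 TPM with PA + 3-IAA. The log2 fold changes were 0.26 for GADD45B (SE 0.09, adjusted p = 0.0436 by edgeR) and 0.32 for GADD45G (SE 0.11, adjusted p = 0.0367 by edgeR). These calls were not stable. Neither passed the threshold by DESeq2 as run here, which gave adjusted p-values of 0.0685 and 0.0508. Nor did either pass in the edgeR fit with a replicate block, which gave 0.077 and 0.073. In the authors' deposited table GADD45G did pass, at an adjusted p of 0.0438. Leaving out replicate 1 or replicate 2 of either group also ended both calls, and leaving out replicate 3 of PA + 3-IAA ended that of GADD45B. Both calls held when replicate 3 of PA + DMSO was left out, at 0.35 and 0.41, where 60.5% of all genes tested were called. With any other single library left out that share was 39.5% to 41.2%.

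**Figure D2:**
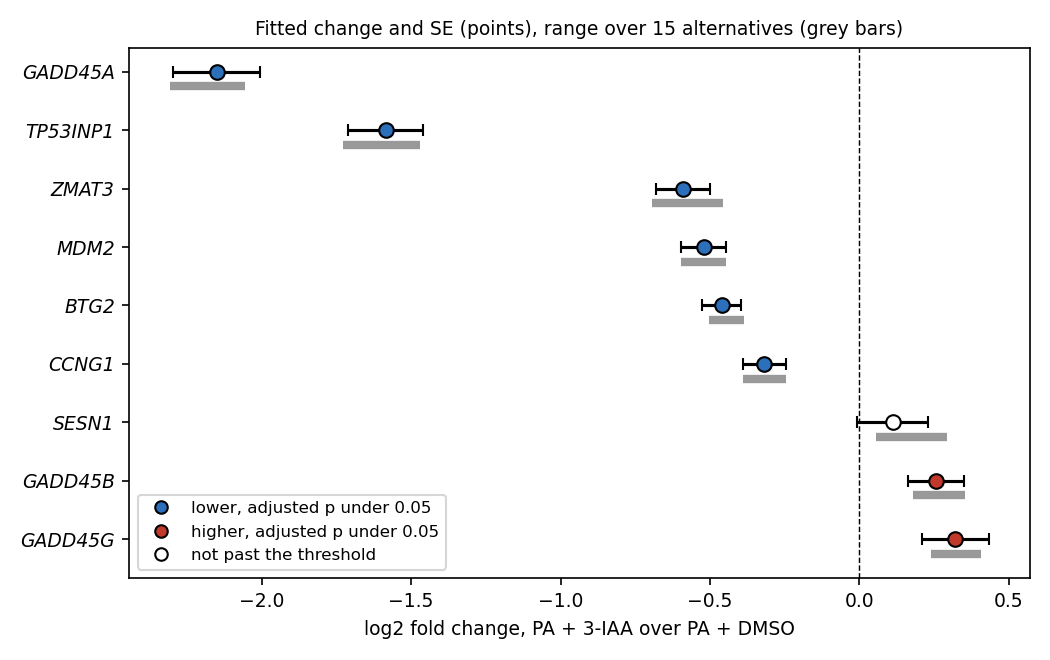
Fitted log2 fold change of PA + 3-IAA over PA + DMSO with its SE (points, horizontal axis) for the 9 genes, with the range over 15 alternative settings as grey bars. GADD45A at -2.15 and TP53INP1 at -1.58 lie far from the other 7 genes, whose values are between -0.59 and 0.32; no grey bar crosses 0.

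The 3 GADD45 genes could be set beside each other in TPM, the authors' level per transcript length. Their summed TPM was 400, 407 and 299 with PA + DMSO and 135, 133 and 128 with PA + 3-IAA. GADD45A made up 89.9%, 89.2% and 83.4% of the sum with PA + DMSO and 54.9%, 57.7% and 60.3% with PA + 3-IAA. The share of GADD45B was 8.41% ± 2.46 (SD, n = 3) with PA + DMSO and 28.3% ± 1.26 with PA + 3-IAA, and that of GADD45G 4.10% ± 1.10 and 14.0% ± 1.51. GADD45A was thus the most abundant of the 3 in every library, with a smaller share with 3-IAA. None of the shares overlapped between groups, and each gave p = 0.1 in a two-sided exact permutation test, the smallest p that 3 libraries against 3 allow. The 3 shares are parts of 1 sum, so a fall of GADD45A raises the others, and the p-values are not separate results. GADD45B itself went only from 30.0 ± 3.25 to 37.5 ± 2.67 TPM and GADD45G from 14.7 ± 1.42 to 18.6 ± 2.50 TPM.

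**Figure D3:**
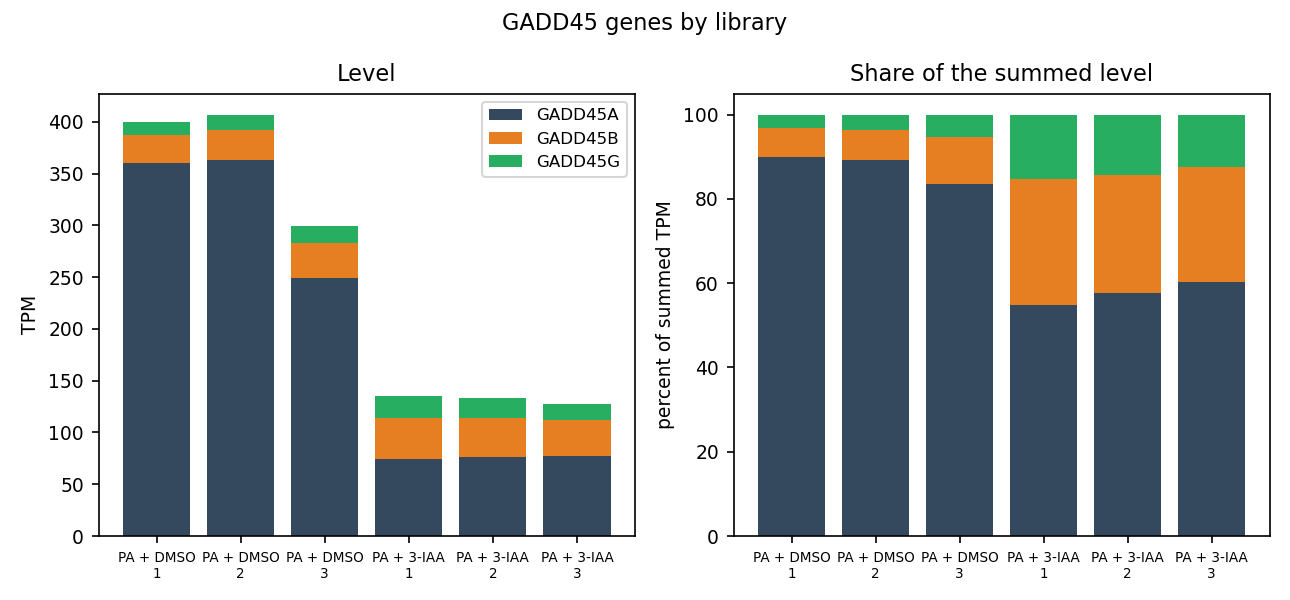
TPM of GADD45A, GADD45B and GADD45G stacked for each of the 6 libraries (left) and their percentage of the summed TPM (right). The sum is 299 to 407 TPM with PA + DMSO and 128 to 135 TPM with PA + 3-IAA, and the GADD45A segment shrinks from 83.4% or more to 60.3% or less.

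Across the 9 genes the order of levels in TPM differed between the groups at the top. With PA + DMSO it was GADD45A (324 ± 64.6 TPM, SD, n = 3), CCNG1 (134 ± 12.6), BTG2 (73.4 ± 3.35), MDM2 (69.7 ± 6.59), TP53INP1 (62.3 ± 11.3), GADD45B (30.0 ± 3.25), GADD45G (14.7 ± 1.42), ZMAT3 (14.4 ± 1.93) and SESN1 (2.72 ± 0.07). Of these neighbours BTG2 and MDM2, MDM2 and TP53INP1, and GADD45G and ZMAT3 overlapped between libraries. With PA + 3-IAA, CCNG1 came first at 112 ± 3.11 TPM, ahead of GADD45A at 76.0 ± 1.58 TPM, and TP53INP1 at 21.6 ± 0.66 TPM ranked behind GADD45B at 37.5 ± 2.67 TPM. No neighbours overlapped there. The order rests on the transcript lengths behind the TPM values. Relative to GADD45A, those implied for MDM2 and ZMAT3 were 2.65 and 4.22 times the deposited length, so that per kilobase of deposited length MDM2 ranked second of the 9 with PA + DMSO and first with PA + 3-IAA.

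PA + DMSO replicate 3 lay between its group and PA + 3-IAA for 8 of the 9 genes. Measured from the mean of PA + DMSO replicates 1 and 2 to the mean of PA + 3-IAA on the log2 CPM scale, it had covered 22.8% of the distance for GADD45A, 22.4% for BTG2, 28.0% for TP53INP1, 40.9% for MDM2, 49.3% for ZMAT3 and 59.5% for CCNG1. GADD45G was at 56.5% and GADD45B at 74.4%. The median over the 4341 genes called with a log2 fold change of at least 0.5 in either direction was 35.3%. CCNG1, BTG2, GADD45B and GADD45G fell short of that cut, so this median does not cover changes as small as theirs. SESN1, whose groups overlapped in CPM, lay outside the interval.

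The genes whose profile over the 6 libraries was nearest to each of 3 members were found by Euclidean distance between centred log2 CPM values. The values were not scaled, so nearness mostly means a change of like size. The 3 genes nearest to GADD45A, for instance, had log2 fold changes of -2.15, -2.21 and -2.07. For GADD45A they were the chemokine gene CXCL8 (distance 0.11), the ER chaperone gene DNAJB9 (0.11) and GPAT3, an enzyme of triglyceride synthesis (0.13), where the median distance to all named genes was 2.68. For MDM2 they were TM4SF1 (0.04), KCMF1 (0.06) and STARD4 (0.06), with a median of 0.81. For GADD45B they were FBXW4 (0.05), MDK (0.06) and GMFG (0.07), with a median of 0.62. Genes picked as the nearest lie below these medians by construction.

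In the authors' deposited table, whose marks start at a 1.5-fold change, GADD45A (log2 -2.16), TP53INP1 (-1.59) and ZMAT3 (-0.60) were marked as down and the other 6 genes as stable; of all its entries 11.6% were marked as down and 11.1% as up. MDM2 (log2 -0.53), BTG2 (-0.47) and CCNG1 (-0.32), all marked stable, fell short of 1.5-fold. Their adjusted p-values in the authors' deposited table were 1.17e-07, 9.12e-07 and 0.00105. That table, the authors' deposited table, gave GADD45B an adjusted p of 0.0599 and GADD45G one of 0.0438. The latter is under 0.05, unlike the 0.0508 from DESeq2 as run here.

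MDM4, the partner of MDM2 that holds p53 inactive, changed by -0.26 (SE 0.09, adjusted p = 0.0396 by edgeR), a call that was lost in 8 of 15 alternative settings. Of 19 tested regulators of p53, MDM4 among them, 6 were lower and 3 higher, with a median of 0.03, and the 47.4% called was below the 51.2% of all genes. With scaling by library total 2 were lower and 5 higher, with limma on log2 TPM values 3 were lower and 4 higher, and the number lower was 3 when replicate 2 of either group was left out and 2 when replicate 1 of PA + 3-IAA was. Both scalings shifted all genes the same way. The main fit had 4015 of all genes lower and 3963 higher. Library-total scaling gave 3315 lower and 4820 higher, and limma on log2(TPM + 1) 3147 lower and 4493 higher. Without replicate 2 of PA + DMSO 3285 of all genes were lower, and without that of PA + 3-IAA 3397. Without replicate 1 of PA + 3-IAA 3306 were lower. CDKN2A, the locus of the MDM2 inhibitor ARF and the cyclin-dependent kinase inhibitor p16, fell 2.76-fold from 3.64 ± 0.53 CPM, TP53BP2 fell 1.27-fold and the checkpoint kinase CHEK1 rose 1.67-fold from 4.04 ± 0.66 CPM.

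Other targets of p53 moved in both directions. Of 33 tested, 14 were lower and 9 higher, which was 69.7% called against 51.2% of all genes, with a median of -0.14 against 0.00. The balance depended on the scaling, as it did for all genes. It was 12 lower and 12 higher with scaling by library total, and 9 lower and 11 higher with limma on log2 TPM values. CDKN1A, which encodes the cyclin-dependent kinase inhibitor p21, stood at 202, 204 and 186 CPM with PA + DMSO and 140, 137 and 129 CPM with PA + 3-IAA, without overlap (log2 -0.54, SE 0.06, adjusted p = 0.000152 by edgeR). Its fall of 1.46-fold was close in size to that of MDM2. The genes with the smallest p were the cell death genes PMAIP1 (log2 -1.79) and BBC3 (-1.62) and the stress hormone gene GDF15 (-1.59), all lower. Of 172 tested loci that the deposited annotation places in the p53 signaling pathway, 7 of the 9 genes among them, 56 were lower and 47 higher (59.9% called against 51.2% of all genes), with a median of 0.03; this count was made after values had been seen.

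**Figure D4:**
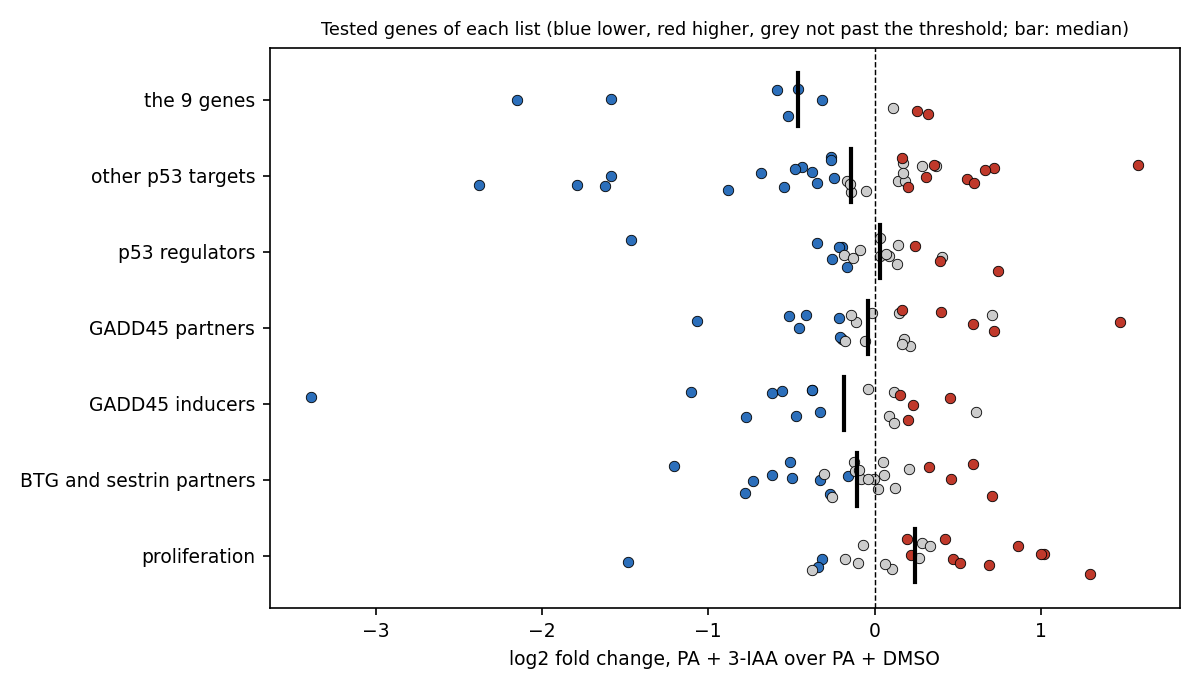
Log2 fold change of PA + 3-IAA over PA + DMSO (horizontal axis) for the tested genes of each list, 1 point per gene, in blue where lower, red where higher and grey where the test was not passed, with the list's median as a bar. The medians run from -0.46 for the 9 genes to 0.25 for the proliferation genes, and every list holds genes on both sides of 0.

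Transcription factors known to act on GADD45 genes had 9 of 18 members lower and 4 higher, with a median of -0.19 and 72.2% called against 51.2% of all genes. ATF4, the main factor of the integrated stress response, stood at 655 ± 88.6 CPM with PA + DMSO and 384 ± 19.5 CPM with PA + 3-IAA (log2 -0.77, SE 0.10, adjusted p = 0.000266 by edgeR). DDIT3 (log2 -3.39) and ATF3 (-1.10), which act downstream of ATF4, fell as well, as did SMAD4 (-0.55), the shared partner of TGF-beta signalling. Leaving out PA + DMSO replicate 3 gave 7 higher, where 4918 of all genes were higher against 3963 in the main fit. Leaving out replicate 1 or 2 of PA + DMSO or replicate 3 of PA + 3-IAA gave 1. The genes higher over all then numbered 3149, 2986 and 3101.

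Partners of the GADD45 proteins, with the p38 and JNK cascades, had 7 of 22 members lower and 5 higher (median -0.04), a share called of 54.5%, near the 51.2% of all genes. With scaling by library total, and with limma on log2 TPM values, 5 were lower and 6 higher, where all genes shifted the same way. The p38 activator MAP2K3 fell 1.43-fold, while the p38 kinase MAPK14 rose 1.32-fold and MAP3K5, a stress kinase upstream of both cascades, rose 2.77-fold from 4.93 ± 1.48 CPM. Partners of BTG2, SESN1 and TP53INP1 had 9 of 26 members lower and 4 higher (median -0.11), and the 50% called was again near the share of all genes. Among these the CCR4-NOT subunit CNOT3 fell 1.72-fold, the BTG-binding methyltransferase PRMT1 1.53-fold and WDR59, a subunit of the GATOR2 complex that sestrins bind, 2.30-fold.

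Among 22 proliferation genes 10 were higher and 3 lower (median 0.25), which was 59.1% called against 51.2% of all genes. MCM2, a subunit of the replicative helicase, rose 2.03-fold from 6.73 ± 1.15 CPM and cyclin D1 (CCND1) 1.61-fold from 6.45 ± 0.68 CPM. MCM6, another helicase subunit, fell 2.80-fold from the far higher level of 161 ± 33.4 CPM.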

How the data were processed

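Per the labels' protocols, polyadenylated RNA was sequenced on an Illumina instrument. The submitters' processing notes list HISAT2 2.2.1, RSEM, DESeq2 and cutadapt 1.9, with no role for any; build, annotation and use of strand are not given in the sources used here, so no coordinates are printed. The deposited table holds the authors' expected counts per gene, of which 17.2% to 19.0% per library were fractional, and the authors' TPM, with group means of both and a length. MDM2, TP53INP1 and CCNG1 had fractional counts in 5, 5 and 2 libraries, the other 6 genes in none. A second table, deposited by the authors, compares the groups by log2 fold change with SE, Wald score, mean normalized signal, p-value and its adjusted form.

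Expected counts were rounded and tested with edgeR 4.0.16 in R 4.3.3 (filterByExpr, TMM; two-sided quasi-likelihood test, robust; Benjamini-Hochberg across 15576 genes; threshold 0.05). The SE was derived from the F statistic as the size of log2 fold change over root F; log2 CPM used a prior count of 2. At these depths 3 counts equal 0.133 to 0.181 CPM, for counting error only. Alternatives were DESeq2 1.42.0, limma 3.58.1 (voom, and log2 of TPM plus 1 or 0.1), RLE or library-total scaling, no filter, a strict filter (all libraries at 1 CPM or more), a replicate block and leaving out each library. The tests were tried on simulated data. The members and lists were chosen with earlier results of these data known. Named genes are the 9 members, up to 3 genes with the smallest p among called genes of each list, the 3 nearest profiles of 3 members, and CDKN1A, MDM4, DDIT3 and ATF4; a gene that the rule also takes is not reported here. SESN2, and ALB as a cell type check, are named outside this rule. TNFRSF10B, CYP2E1 and C1QC were not matched and EDA2R, SPATA18, TP63 and RGS5 did not pass the filter.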

Additional observations from a re-analysis of the deposited data

How the results depend on the processing

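The 6 falls (GADD45A, TP53INP1, ZMAT3, MDM2, BTG2, CCNG1) were called in each of the 15 alternatives, and SESN1 in none. Across these alternatives 32.0% to 60.5% of all genes tested were called. The number of the 9 genes called higher was 0 by DESeq2 and 0 with the replicate block, and 0 to 2 when single libraries were left out. Of all genes 3515 were higher by DESeq2 and 3722 with the block, against 3963 in the main fit. With single libraries left out it was 2986 to 4918. The cause was not tested. The block changed no other call of the 9 genes. The labels do not say what a replicate number marks, so the numbers were not taken as pairs. Deviations from the group mean correlated at 0.02, 0.03 and 0.02 between same-numbered libraries. Between libraries of unlike number the correlations were -0.038 to 0.009. PA + DMSO replicate 3 was set apart from its group, so such values cannot decide whether the numbers mark pairs. Scaling by library total moved the median log2 fold change of all genes by 0.07. With it 4820 of all genes were higher and 3315 lower, and with limma on log2(TPM + 1) 4493 and 3147. The list counts below under these settings are to be read beside that shift.

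Among the other p53 targets 9 were lower and 11 higher with limma on log2(TPM + 1), likewise with log2(TPM + 0.1), and 12 lower and 12 higher with library-total scaling. Of the regulators of p53 5 were higher and 2 lower with library-total scaling, and 4 higher and 3 lower with either TPM setting. Of the GADD45 inducers 2 were higher by DESeq2, where 3515 of all genes were. Leaving out single libraries gave 2 to 4 higher and 2 to 7 lower for the regulators of p53, and 1 to 7 higher for the GADD45 inducers. Over all genes it gave 2986 to 4918 higher and 3285 to 4726 lower. The drop of the GADD45A share by 29.9 percentage points (-29.9) was -30.6 in counts per kilobase and -31.9 to -28.5 with single libraries left out. Ranks of levels per kilobase were added after seeing the data. Precision for SESN1 is limited by its low counts.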
